A study of Mus musculus with 27 samples.

Results

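The 10 genes described here encode the rod-derived cone viability factors (Nxnl1 and Nxnl2), the thioredoxin inhibitor Txnip, and enzymes that remove superoxide or peroxides (Gpx1, Gpx3, Gpx4, Sod1, Sod2, Sod3 and Cat). They were taken by symbol from a table of 38168 features, and of repeated entries of a symbol that with the greatest mean level was taken. All 10 were present. The table holds CPM values (the reads of a feature as a share of the reads counted in its library, scaled to a common total) for whole retinas of wild type C57BL/6J mice, an inbred strain, in 27 libraries. The ages were embryonic day 14 (E14, n = 3), E17 (n = 3), postnatal day 1 (P1, n = 4), P6 (n = 3), P15 (n = 4), P28 (n = 4) and P60 (n = 6). No gene was altered and no treatment was given at any age, and the animals lived in a cycle of equal light and dark periods with tissue collected in the light phase. The sample labels give 3 retinas per library, whereas the study's methods describe larger pools at every age, except that at P60 only 2 libraries were pools and the other 4 came from single mice, without saying which. Embryonic and P1 libraries mixed the sexes and later libraries came from males, so sex and age cannot be told apart at the step from P1 to P6 or between embryonic and mature retina. The libraries held 7076646 to 11330762 reads in the table (median 7968785). P60 replicate 3 stood apart from the other libraries, with the lowest median-of-ratios size factor (0.853, against 0.916 to 1.09 in the other 26). As a check of the tissue, retinal progenitor markers went from 3644 to 4758 CPM in embryonic to 115 to 188 CPM in mature libraries, and lens markers did not exceed 10.1 CPM in any library.

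Retinal cells consume much oxygen, and photoreceptors carry membranes rich in polyunsaturated lipids that peroxides can attack. Superoxide dismutases turn superoxide into hydrogen peroxide, and catalase, glutathione peroxidases and thioredoxin-dependent peroxiredoxins remove the peroxide. The rod-derived cone viability factors are thioredoxin-like proteins. The short, secreted product of Nxnl1 reaches cones and binds basigin beside a glucose transporter, while the long products of both genes stay in photoreceptors as redox proteins. Txnip binds and blocks thioredoxin and also limits glucose uptake.

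The promoters of 3 members are shown because these members had the largest changes between embryonic and mature retina on the log2(CPM + 1) scale, while only 2 of the 3 held any of the motifs searched. With a pseudocount of 0.1 and in edgeR, Sod3 (3.10 and 4.74) changed more than Txnip (-2.42 and -2.29). Each run is the 250 bases before the RefSeq start in GRCm38.p6, written 5′ to 3′ on the gene's strand, from chr8:71566650-71566899 (minus strand) for Nxnl1, chr13:51170775-51171024 (plus strand) for Nxnl2 and chr3:96557707-96557956 (plus strand) for Txnip, and capitals mark a motif match.
Nxnl1: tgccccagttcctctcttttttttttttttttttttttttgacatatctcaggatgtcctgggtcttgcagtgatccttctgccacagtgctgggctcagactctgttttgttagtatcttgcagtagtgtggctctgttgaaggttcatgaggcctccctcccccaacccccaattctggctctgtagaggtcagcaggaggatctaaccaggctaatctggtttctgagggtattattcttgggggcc
Nxnl2: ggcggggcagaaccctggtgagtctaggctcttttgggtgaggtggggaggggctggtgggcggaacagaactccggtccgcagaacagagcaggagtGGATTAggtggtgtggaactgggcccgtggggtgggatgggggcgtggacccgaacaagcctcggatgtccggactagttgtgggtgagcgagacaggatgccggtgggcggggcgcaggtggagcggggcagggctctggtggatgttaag
Txnip: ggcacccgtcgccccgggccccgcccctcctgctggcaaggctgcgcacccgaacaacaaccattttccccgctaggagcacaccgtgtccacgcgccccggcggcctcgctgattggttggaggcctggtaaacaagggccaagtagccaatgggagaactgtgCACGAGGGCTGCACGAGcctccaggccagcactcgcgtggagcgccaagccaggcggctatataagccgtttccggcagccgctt

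The motifs were TAATCC, which the photoreceptor factor CRX can bind, TGACNNNGC, the core of the antioxidant response element that Nrf2 binds, and paired E boxes of the glucose-responsive type, each CACGNG with 5 bases between them. Both strands were searched, and the motifs do not overlap one another in these windows. RefSeq held a promoter for 9 of the 10 members, and Sod3 is named only. The CRX-type match in Nxnl2 lies 152 to 147 bases before the start on the opposite strand, and 6.25% of 32851 promoters of the same length held this motif. The paired E boxes of Txnip lie 85 to 69 bases before the start and occurred in 15 promoters (0.0457%). The Sod1 promoter held an antioxidant response core 56 to 48 bases before the start, a motif found in 10.2% of promoters. None of the 3 motifs occurred in the windows of Nxnl1, Gpx1, Gpx3, Gpx4, Sod2 or Cat, which says only that these letters are not there.

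Between embryonic (E14 and E17, n = 6) and mature retina (P15, P28 and P60, n = 14), all 10 members passed the test, 5 of them higher in mature retina and 5 lower, and all 10 also passed without P60 replicate 3. Nxnl1, Nxnl2, Gpx4, Sod2 and Sod3 rose, and Txnip, Gpx1, Gpx3, Sod1 and Cat fell. Of 31760 features tested across the whole table, 35.0% were called higher and 40.4% lower, so most features changed over this span. Changes of at least 1 on the log2 scale were seen for 3 rising and 3 falling members, where 14.9% and 16.1% of all features did so. The median log2 fold change of the members was -0.04, beside -0.06 for all features. All 10 members also passed an F test over the 7 ages, as did 83.0% of features. In whole tissue, fewer cells of a type and less RNA per cell cannot be told apart. The limma p-values rest on a spread between libraries that is pooled over the 7 ages for each gene. A fit of the compared ages only uses the spread of those ages, so its p-values can differ. Nxnl1 and Sod3 passed the filter on low values only through the ages at which they are high.

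**Figure D1:**
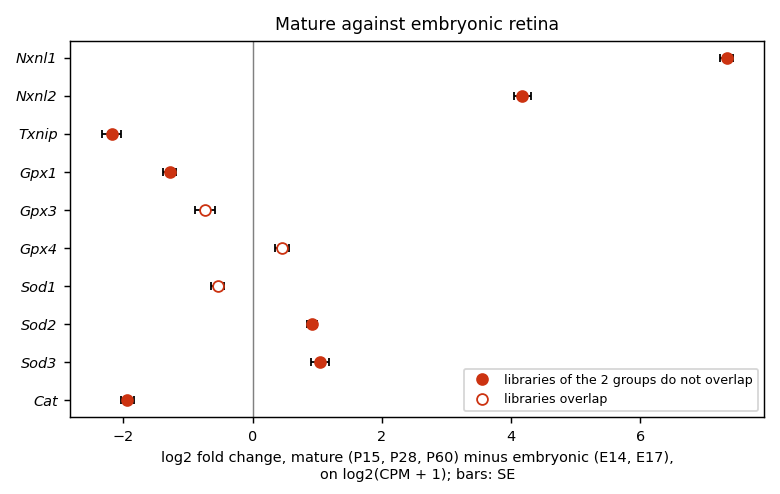
Log2 fold change of each of the 10 genes between mature and embryonic retina on the log2(CPM + 1) scale, with bars giving the SE, filled points where the libraries of the 2 groups do not overlap and open points where they do. Nxnl1 (7.33) and Nxnl2 (4.18) lie farthest to the right and Txnip (-2.19) and Cat (-1.94) farthest to the left, while Gpx3, Gpx4 and Sod1 have open points.

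Nxnl1, on chromosome 8 from 71560555 to 71566601 (minus strand, GRCm38), encodes the first of these viability factors. At E14 its libraries held 1, 0 and 4 reads, the last being 0.421 CPM, and at E17 they had 0.818, 0.529 and 0.932 CPM. At P1 the values were 4.42, 2.52, 4.41 and 5.68 CPM, and at P6 they were 95.2, 85.1 and 92.0 CPM. Every library of each of these ages lay above all libraries of the age before. At P15 the libraries had 200.1, 209, 207 and 279 CPM, and at P28 248, 219.6, 217 and 240.3 CPM. At P60 the lowest was 206, the median 233 and the highest 274 CPM. The last 3 ages overlapped, and together they averaged 231 ± 24.6 CPM (SD, n = 14), against 0.467 ± 0.374 CPM (n = 6) in embryonic retina. The log2 fold change was 7.33 (SE 0.10, limma adjusted p = 2.24e-33).

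The rise of Nxnl1 ran through 4 consecutive steps. It was largest from P1 to P6, at 4.16 on the log2 scale (SE 0.15, limma adjusted p = 2.55e-20), a step at which 18.0% of features were called higher and 20.4% lower. From P6 to P15 it rose by a further 1.28 (SE 0.15, limma adjusted p = 5.67e-08), where 14.4% of features were higher and 19.0% lower. From E17 to P1 it rose by 1.55 (SE 0.15, limma adjusted p = 6.62e-09), where 5.77% were higher and 3.43% lower. The first step, from E14 to E17, was 0.59 (SE 0.16, limma adjusted p = 0.0132), where 7.56% of features were higher and 3.02% lower. That first call rested on few reads and on single libraries. It was lost without E14 replicate 1 (0.55, adjusted p = 0.0581), E14 replicate 2 (0.49, 0.108), E17 replicate 1 (0.57, 0.0535) or E17 replicate 3 (0.52, 0.0805), in limma, and edgeR on the recovered reads gave an adjusted p of 0.0502.

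Nxnl2, on chromosome 13 from 51171022 to 51175188 (plus strand), encodes the paralog of Nxnl1. Its E14 libraries held 2, 1 and 1 reads, all at or under 0.2001 CPM, and its E17 libraries had 1.02, 1.41 and 1.66 CPM. At P1 the values were 3.68, 3.91, 4.75 and 4.85 CPM, and at P6 they were 29.95, 29.1 and 27.99 CPM. Up to P6 each age lay above the one before with no overlap, as for Nxnl1. At P15 the libraries had 30.2, 36.2, 29.6 and 32.2 CPM, and at P28 34.1, 29.6, 35.4 and 17.1 CPM. At P60 the lowest was 16.3, the median 26.7 and the highest 37.0 CPM. The 4 ages from P6 on overlapped, with P28 replicate 4 and P60 replicate 2 the lowest. Mature retina averaged 29.0 ± 6.78 CPM (n = 14) and embryonic retina 0.750 ± 0.703 CPM (n = 6), a log2 fold change of 4.18 (SE 0.14, limma adjusted p = 5.04e-23). Against the floor of 3 reads per library, the mature level was at least 91.5-fold higher than at E14.

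Nxnl2 rose at each of the first 3 steps, by 1.05 from E14 to E17 (SE 0.23, limma adjusted p = 0.00133), by 1.17 from E17 to P1 (SE 0.21, limma adjusted p = 0.000233) and by 2.51 from P1 to P6 (SE 0.21, limma adjusted p = 1.91e-11). From P6 to P15 the log2 difference was 0.14 (SE 0.21, limma adjusted p = 0.672). At P6 Nxnl2 was thus at 100.2% of its mature mean and Nxnl1 at 39.3%. The ratio of Nxnl1 to Nxnl2 within a library averaged 0.986 ± 0.258 at P1 (n = 4) and 3.13 ± 0.185 at P6 (n = 3). In mature libraries it ranged from 5.77 to 14.1, with no overlap with P6. The log2 difference of the ratio between P6 and mature retina was 1.39 (SE 0.12, two-sided exact permutation test, p = 0.00294, the smallest value that 3 against 14 libraries allow). This ratio and the ratios of Gpx4 to Gpx1 and of Sod2 to Sod1, given with those genes, were chosen after the values were seen, and the p stayed at 0.00294 after adjustment over the 3. The adjustment covers only the chosen ratios, so these p-values are no separate support for the changes of the genes.

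Rod markers rose over the same ages. The summed level of 7 rod genes was 14.98 to 20.8 CPM in embryonic libraries, 169 to 197 CPM at P1, 2433.5 to 2873.5 CPM at P6 and 9134 to 13711 CPM in mature libraries, and none of the 7 was at 0 in any age. Among these genes at P6, Gnat1 (rod transducin) was at 1.38% of the mature mean, Sag (arrestin) at 40.3%, Nrl (the factor that directs rod fate) at 79.1% and Nr2e3 (another rod factor) at 273%. Nxnl1 at 39.3% was nearest to Sag among the 7, and Nxnl2 at 100.2% lay between Nrl and Nr2e3. The part of rod number in the rise of either gene was not tested.

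Of the proteins that act with the Nxnl1 product, the receptor basigin and the glucose transporter moved in opposite directions. Bsg averaged 123.9 ± 17.2 CPM in embryonic and 357 ± 54.4 CPM in mature retina, a log2 fold change of 1.498 (SE 0.08, limma adjusted p = 1.57e-17). Slc2a1, the gene of the transporter GLUT1, fell from 289 ± 6.72 to 89.3 ± 12.9 CPM, a change of -1.69 (SE 0.07, limma adjusted p = 1.66e-20). Neither gene's groups overlapped.

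**Figure D2:**
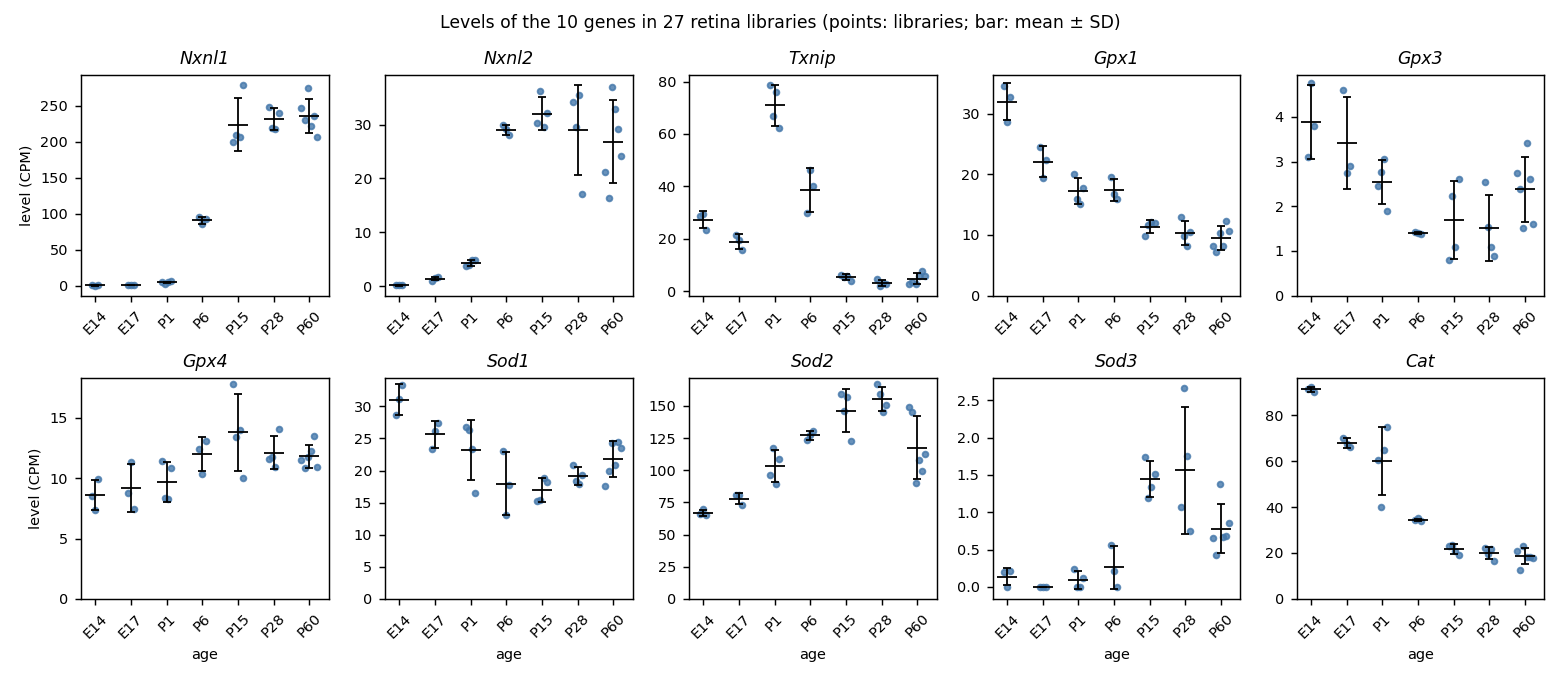
Levels of the 10 genes in CPM (linear axes, a scale for each gene) at the 7 ages, where each point is a library and the bars give the mean ± SD. Nxnl1 and Nxnl2 climb to P15 and P6 and then level off, Txnip has its highest libraries at P1 (62.2 to 78.9 CPM), and Cat declines from 91.3 CPM at E14 to 18.5 CPM at P60.

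Txnip, on chromosome 3 from 96557957 to 96561883 (plus strand), had a peak at P1. Its libraries had 28.5, 29.5 and 23.5 CPM at E14, and 21.5, 19.5 and 15.7 CPM at E17. At P1 they had 78.9, 66.7, 75.9 and 62.2 CPM, and at P6 29.7, 46.2 and 40.3 CPM. All 4 P1 libraries lay above every library of any other age. At P15 the values were 6.29, 5.40, 5.84 and 3.71 CPM, and at P28 4.66, 2.11, 3.25 and 2.77 CPM. At P60 the lowest was 2.76, the median 4.51 and the highest 7.83 CPM. No mature library reached the lowest embryonic library, and the 3 mature ages overlapped.

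From E17 to P1 Txnip rose by 1.86 on the log2 scale (SE 0.24, limma adjusted p = 9.23e-07). It then fell by 0.87 from P1 to P6 (SE 0.24, limma adjusted p = 0.0034) and by 2.65 from P6 to P15 (SE 0.24, limma adjusted p = 1.54e-10). Mature retina averaged 4.46 ± 1.71 CPM (n = 14) and embryonic retina 23.0 ± 5.30 CPM (n = 6), a log2 fold change of -2.19 (SE 0.15, limma adjusted p = 2.37e-14). The table holds 2 entries of this symbol with the same Gene ID. The lower entry had a mean of 23.3 CPM at P1 and 8.27, 6.08, 12.1, 1.55, 1.39 and 1.89 CPM at E14, E17, P6, P15, P28 and P60, so it too was highest at P1. In GENCODE M21, 606 exon bases of Txnip (19.4%) lie opposite exons of the antisense gene Gm15441, and since the use of strand in counting is not given in the sources used here, reads of the pair cannot be told apart.

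Among relatives and regulators of Txnip, 6 genes were tested, of which 3 were lower in mature retina, none was higher and 3 did not pass. Of all features, 40.4% were lower and 35.0% higher. Mlxip encodes MondoA, a glucose-sensing factor that acts on Txnip at paired E boxes. It fell from 53.9 ± 7.98 to 19.2 ± 3.36 CPM, a log2 fold change of -1.47 (SE 0.08, limma adjusted p = 1.5e-16). Arrdc4, an arrestin-domain relative of Txnip that also restrains glucose uptake, had a change of -0.27 (SE 0.12, limma adjusted p = 0.0459) with overlapping groups. From E17 to P1, when Txnip rose, Arrdc4 rose by 0.64 (limma adjusted p = 0.0234). Txn1, the thioredoxin that Txnip binds, fell from 11.9 ± 1.27 to 3.16 ± 0.773 CPM, a change of -1.63 (SE 0.12, limma adjusted p = 2.84e-13).

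The 3 glutathione peroxidases among the members took different courses. Gpx1, the cytosolic and mitochondrial enzyme, lies on chromosome 9 from 108338903 to 108340343 (plus strand). It had 34.6, 28.6 and 32.7 CPM at E14, 24.4, 19.4 and 22.4 CPM at E17, 19.99, 16.0, 15.2 and 17.7 CPM at P1, and 19.5, 16.8 and 15.99 CPM at P6. The ranges of P1 and P6 overlapped, and the step from E17 to P1 did not pass (-0.34, SE 0.16, limma adjusted p = 0.210). With limma fitted to E17 and P1 alone that step passed (adjusted p = 0.0455). At P15 the libraries lay below all of those of P6, with 9.77, 11.6, 12.2 and 11.96 CPM. At P28 the values were 12.9, 9.83, 8.25 and 10.4 CPM, and at P60 they ran from 7.18 over a median of 9.27 to 12.4 CPM. The mature mean was 10.3 ± 1.80 CPM and the embryonic mean 27.02 ± 5.98 CPM, with no overlap and a log2 fold change of -1.29 (SE 0.10, limma adjusted p = 5.01e-13).

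From P6 to P15 Gpx1 changed by -0.57 on the log2 scale (SE 0.16, limma adjusted p = 0.00478). The change from E14 to E17, -0.52 (SE 0.17, limma adjusted p = 0.0429), lay close to the threshold. Without E14 replicate 1, 2 or 3 the adjusted p of limma was 0.168, 0.0506 or 0.126, without E17 replicate 2 or 3 it was 0.206 or 0.0978, and without P6 replicate 2 it was 0.0503. The direction was the same in each of these fits, although leaving out a P6 library could not change it.

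Gpx4, on chromosome 10 from 80047166 to 80056439 (plus strand), encodes the peroxidase that reduces peroxidised membrane lipids. Its libraries ran from 7.38 to 11.4 CPM in embryonic and from 10.03 to 17.8 CPM in mature retina, so the groups overlapped. The means were 8.90 ± 1.53 and 12.5 ± 1.98 CPM, a log2 fold change of 0.45 (SE 0.11, limma adjusted p = 0.000319). No step between neighbouring ages passed the test, with changes from -0.16 to 0.28. A 50-base window, the length of a read, was shared with transcripts of other genes for 34.7% of the distinct windows of Gpx4, the other genes being the pseudogenes Gpx4-ps2 and AC122253.3, so its level is uncertain by however such reads were counted.

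Gpx3, on chromosome 11 from 54902453 to 54910377 (plus strand), encodes the secreted enzyme of plasma and was the lowest of the 3. It ranged from 2.74 to 4.75 CPM in embryonic and from 0.803 to 3.42 CPM in mature libraries, and the groups overlapped. The means were 3.65 ± 0.875 and 1.93 ± 0.820 CPM, a log2 fold change of -0.74 (SE 0.16, limma adjusted p = 0.000126). The P6 libraries, at 1.41, 1.41 and 1.38 CPM, lay below all P1 libraries (1.89 to 3.05 CPM), but the step of -0.55 did not pass (SE 0.25, limma adjusted p = 0.0801). With limma fitted to P1 and P6 alone that step passed (adjusted p = 0.0255).

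Within a library, the ratio of Gpx4 to Gpx1 was 0.246 to 0.586 in embryonic retina and 0.839 to 1.82 in mature retina. The log2 difference was 1.87 (SE 0.20, two-sided exact permutation test, p = 5.16e-05, adjusted over 3 ratios 7.74e-05). That p is the smallest that 6 against 14 libraries allow. Gpx4 and Gpx1 had already been called in opposite directions between these groups, so the test of their ratio adds no separate support.

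The superoxide dismutases also differed among themselves. Sod2, on chromosome 17 from 13006846 to 13040063 (plus strand), encodes the manganese enzyme of mitochondria. Its libraries had 65.9, 69.5 and 64.8 CPM at E14, 80.7, 80.6 and 72.7 CPM at E17, 96.3, 117, 89.4 and 109 CPM at P1, and 123, 127 and 131 CPM at P6. These 4 ages rose with no overlap between neighbours. At P15 the values were 159, 146, 157 and 122 CPM, and at P28 167, 159, 145 and 151 CPM. The mature mean was 136 ± 24.9 CPM and the embryonic mean 72.4 ± 6.97 CPM, a log2 fold change of 0.92 (SE 0.08, limma adjusted p = 6.1e-12) with no overlap.

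Of the single steps of Sod2, that from E17 to P1 passed, at 0.39 (SE 0.13, limma adjusted p = 0.0436), and that from P1 to P6, at 0.31 (SE 0.13, limma adjusted p = 0.0518), did not. Both lay close to the threshold. The first was lost in 15 limma fits that left out a library, which were each library of E14, E17 and P6, P1 replicates 1, 2 and 4, P15 replicate 2, P28 replicate 2 and P60 replicate 6. Over these fits the limma adjusted p ran from 0.0501 to 0.198, the highest being without E17 replicate 3 (log2 fold change 0.34). The second was gained without P1 replicate 2, P15 replicate 4 or P60 replicate 1, 2, 3 or 5 (limma adjusted p from 0.0266 to 0.0458), with median-of-ratios scaling (0.34, limma adjusted p = 0.0152) and in edgeR on recovered reads (0.35, adjusted p = 0.0132). The second was also gained with limma fitted to P1 and P6 alone (adjusted p = 0.003).

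From P28 to P60 Sod2 was the only member with a call, and 4.80% of all features were higher and 8.11% lower at this step. The P60 libraries had 149, 146, 89.8, 108, 99.6 and 113 CPM, of which replicates 1 and 2 lay within the P28 range and replicates 3 to 6 lay below it. The log2 fold change was -0.42 (SE 0.11, limma adjusted p = 0.0128). The call was lost without P28 replicate 1 (-0.39, limma adjusted p = 0.0508), with the replicate number as a block (-0.36, limma adjusted p = 0.0541) and when limma was fitted to P28 and P60 alone (-0.42, adjusted p = 0.161). Calls at this step also fell across the table. With the block, 366 features were higher and 663 lower, in place of 1524 and 2576. With P28 and P60 alone, 19 of 28828 features were higher and 4 lower. P60 replicate 3, the library that stood apart, had the lowest Sod2 value of its age. Of the 50-base windows of Sod2, 21.0% also occur in transcripts of 415 other genes.

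Sod1, on chromosome 16 from 90220754 to 90226329 (plus strand), encodes the copper and zinc enzyme of the cytosol. It ran from 23.3 to 33.4 CPM in embryonic and from 15.3 to 24.4 CPM in mature libraries, which overlapped. The means were 28.4 ± 3.59 and 19.6 ± 2.94 CPM, a log2 fold change of -0.54 (SE 0.10, limma adjusted p = 1.66e-05). No step passed the test with all 27 libraries. When limma was fitted to E14 and E17 alone, the step between them passed (-0.27, adjusted p = 0.0271). The step from P1 to P6, -0.36 (SE 0.16, limma adjusted p = 0.0651), passed without P1 replicate 4, the lowest of its age (-0.51, adjusted p = 0.00802), or without P6 replicate 1, the highest of its age (-0.55, adjusted p = 0.00971). Ccs, the copper chaperone that loads Sod1, had 1.45 ± 0.350 CPM in embryonic and 1.86 ± 0.712 CPM in mature retina (0.17, SE 0.15, limma adjusted p = 0.299).

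The ratio of Sod2 to Sod1 was 1.94 to 3.46 in embryonic libraries and 3.69 to 10.4 in mature libraries. The log2 difference was 1.43 (SE 0.18, two-sided exact permutation test, p = 5.16e-05, the smallest possible, and 7.74e-05 adjusted over 3 ratios). Sod2 and Sod1 had already been called in opposite directions between these groups, so this test adds no separate support. By age the ratio averaged 2.16 ± 0.190 at E14 and 8.74 ± 1.58 at P15, and it was 5.59 ± 1.90 at P60.

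**Figure D3:**
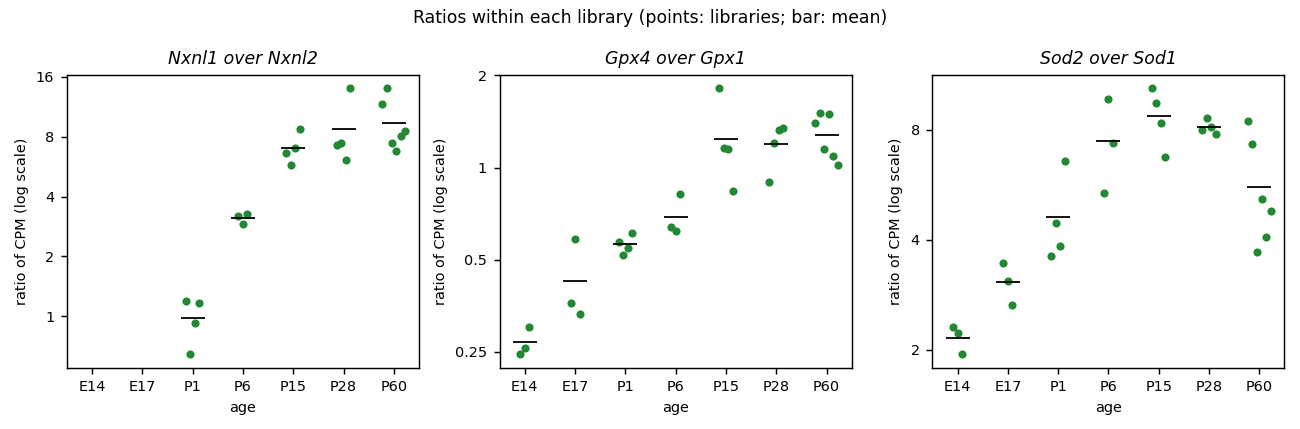
Ratios of CPM within each library (log axes) at the 7 ages, for Nxnl1 over Nxnl2 (from P1 on), Gpx4 over Gpx1 and Sod2 over Sod1, where points are libraries and bars are means. Nxnl1 over Nxnl2 is near 1 at P1 and 5.77 to 14.1 in mature libraries, Gpx4 over Gpx1 passes 1 in most mature libraries, and the P60 libraries spread widely for Sod2 over Sod1.

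Sod3, on chromosome 5 from 52363791 to 52371418 (plus strand), encodes the extracellular enzyme and had the fewest reads of the 10. Embryonic libraries held 2, 0 and 2 reads at E14 and 0 in each of the 3 at E17. The P1 libraries held 0 to 2 reads and the P6 libraries 4, 2 and 0. At P15 the values were 1.74, 1.19, 1.34 and 1.51 CPM (9 to 13 reads), and at P28 1.07, 2.67, 1.76 and 0.754 CPM. At P60 the lowest was 0.422, the median 0.675 and the highest 1.38 CPM (3 to 11 reads). The P60 libraries overlapped those of P6, and the lowest was at the floor of 3 reads. The mature mean of 1.19 ± 0.601 CPM was at least 3.77-fold higher than the floor of 3 reads per embryonic library, and a count of 0 allowed up to 0.316 CPM in these libraries, counting error only. The P15 libraries lay above all P6 libraries, and the step was 0.97 on the log2(CPM + 1) scale (SE 0.21, limma adjusted p = 0.000382).

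The summed level of markers of the retinal pigment epithelium, a layer outside the retina, also rose between P6 and P15, although the single markers differed. Their sum over 10 genes was 5.91 to 12.6 CPM in embryonic libraries, 35.4 to 55.0 CPM at P6, 69.3 to 114 CPM at P15 and 24.3 to 114 CPM in mature libraries. Mlana was at 0 in every P15 library, and it and Tyrp1 averaged under 1 CPM in mature retina. At P6, Rpe65, Ttr, Lrat and Rgr stood at 17.5%, 72.7%, 7.10% and 32.0% of their mature means. Best1, Pmel, Tyr, Tyrp1, Dct and Mlana were instead higher at P6, at 154% to 307% of their mature means. The part of such tissue in the Sod3 values was not tested. From P28 to P60 Sod3 changed by -0.49 (SE 0.17, limma adjusted p = 0.06), and it passed the test without P28 replicate 4 (-0.65, adjusted p = 0.0281) or P60 replicate 3 (-0.58, adjusted p = 0.0448).

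Cat, on chromosome 2 from 103453849 to 103485160 (minus strand), encodes catalase, which breaks down hydrogen peroxide in peroxisomes. It had 91.3, 92.4 and 90.3 CPM at E14, 70.1, 67.7 and 66.1 CPM at E17, 60.3, 39.8, 64.8 and 75.1 CPM at P1, and 34.2, 35.0 and 33.9 CPM at P6. E17 and P1 overlapped, with P1 replicate 2 the lowest of its age, and the other neighbours up to P15 did not. At P15 the values were 23.2, 23.6, 20.7 and 19.0 CPM, and at P28 22.3, 19.4, 21.5 and 16.5 CPM. At P60 the lowest was 12.7, the median 18.1 and the highest 23.1 CPM, so the 3 mature ages overlapped.

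The decline of Cat passed at 2 consecutive steps, by -0.75 from P1 to P6 (SE 0.16, limma adjusted p = 0.000245) and by -0.65 from P6 to P15 (SE 0.16, limma adjusted p = 0.00153). From embryonic to mature retina Cat went from 79.7 ± 12.9 to 19.8 ± 3.03 CPM, a 4.03-fold decrease and a log2 fold change of -1.94 (SE 0.10, limma adjusted p = 1.47e-17). Its E14 and E17 libraries were also separate, although the step of -0.42 did not pass (SE 0.17, limma adjusted p = 0.121). This step did pass when limma was fitted to E14 and E17 alone (adjusted p = 1.8e-06). Red blood cells also hold much catalase, Gpx1 and peroxiredoxin. Of their 8 marker genes, 7 were in the table. The sum of the 7 was 12.8 to 20.9 CPM in embryonic libraries and 11.8 to 17.9 CPM at P1. It was 41.4 to 52.3 CPM at P6 and 20.4 to 44.98 CPM in mature libraries. Alas2 was the highest at every age, and the globin genes differed. Hba-a2 and Hbb-bs averaged under 1 CPM at every age. Hba-a1 averaged 4.78 CPM in embryonic and 6.63 CPM in mature retina, and at P6 it stood at 262% of its mature mean. Hbb-bt averaged 1.09 CPM in embryonic retina, and at P6 it stood at 227% of its mature mean. Hba-a1 averaged under 1 CPM at P1, and Hbb-bt did so at E17 and P1. The part of blood cells in the Cat values was not tested.

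Read across the 6 steps, the members called were 2 higher and 1 lower from E14 to E17, where 7.56% of all features were higher and 3.02% lower. From E17 to P1 they were 4 higher and none lower (5.77% and 3.43% of all features), from P1 to P6 2 and 2 (18.0% and 20.4%), and from P6 to P15 2 higher and 3 lower (14.4% and 19.0%). At the next step, up to P28, no member passed in limma or in edgeR, where 1.14% of all features were higher and 1.58% lower. In both tools 1 member, Txnip in limma (-0.60, SE 0.22), had an unadjusted p under 0.05 at that step, and the limma changes of the 10 ran from -0.60 to 0.17. Neighbouring steps share the libraries of the age between them.

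**Figure D4:**
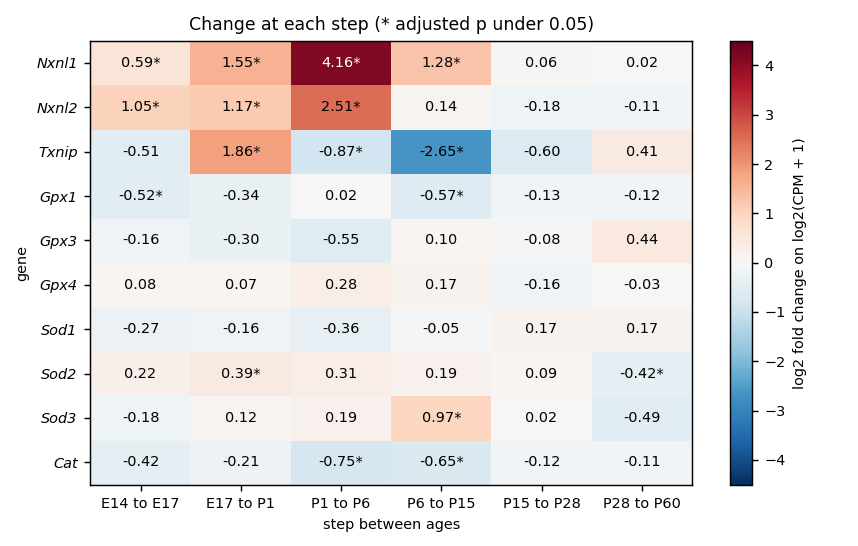
Log2 fold change of the 10 genes at each of the 6 steps between neighbouring ages, on the log2(CPM + 1) scale, with colour and number giving the change and an asterisk an adjusted p under 0.05. The largest rise is in Nxnl1 from P1 to P6 (4.16) and the largest fall in Txnip from P6 to P15 (-2.65). The column from P15 to P28 has no asterisk, a step at which 1.14% of all features were called higher and 1.58% lower.

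To compare levels between genes, CPM was divided by the kilobases of merged exons in GENCODE M21. On this per-length scale Cat was the highest member in embryonic retina, at 30.5 ± 4.93 CPM per kb, followed by Gpx1 at 18.8 ± 4.15. Txnip (7.38 ± 1.70), Sod2 (7.23 ± 0.696), Sod1 (7.14 ± 0.903) and Gpx4 (5.16 ± 0.888) followed with overlapping libraries, and then Gpx3 (2.01 ± 0.483). In mature retina Nxnl1 was highest, at 84.6 ± 9.02 CPM per kb, and Sod2 followed at 13.6 ± 2.49. Nxnl2 (8.26 ± 1.93), Cat (7.57 ± 1.16), Gpx4 (7.23 ± 1.15) and Gpx1 (7.13 ± 1.25) did not differ beyond the spread of their libraries. Sod1 (4.94 ± 0.741) had a lower mean, but its libraries (3.84 to 6.16) overlapped those of Nxnl2, Cat, Gpx4 and Gpx1. Txnip (1.43 ± 0.547), Gpx3 (1.07 ± 0.452) and Sod3 (0.319 ± 0.161) were lower. The annotation behind the deposited values is not given in the sources used here, so these lengths may differ from those counted.

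The features most like each member were sought among 11000 with a Gene ID and a mean of at least 10 CPM, by Pearson's r over the 7 age means of log2(CPM + 1). The 7 points share libraries and the course of maturation, and many features are alike, so these r values describe profiles only. Nxnl1 was nearest to 5730408K05Rik, Adamts3 and Tspan10 (r = 0.9997 to 0.999), and 1349 features had r of at least 0.95 with it. Nxnl2 was nearest to Usp53, Pdc (phosducin, a photoreceptor protein) and Plekhb1 (r from 0.9991 to 0.9987), with 1004 features at or over 0.95. Txnip had 100 such features, the nearest being Pot1a, Ick and Arhgef10l (r from 0.991 to 0.989).

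Among the enzymes, Cat had the most such features, 1768, the nearest being Golm1, Aifm2 and Knop1 (r = 0.998 for each), and Gpx4 had 619, led by C230072K23. Gpx1 had 359, led by Crcp, Sod2 277, led by Rmdn1, Sod1 112, led by N4bp1, Gpx3 97, led by Nup98, and Sod3 66, led by 3830612M24. Between members, the 7 age means of Nxnl1 correlated at 0.98 with those of Nxnl2, 0.96 with Gpx4, 0.93 with Sod2 and -0.98 with Cat. Txnip was the least like the others, with r from -0.86 (Sod3) to 0.78 (Cat).

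Other genes of the same chemistry were read from 12 lists with 84 genes, of which 80 were in the table and 73 were tested. In mature against embryonic retina 21 were higher, 39 lower and 13 did not pass, with a median log2 fold change of -0.34 beside -0.06 for all features, of which 35.0% were higher and 40.4% lower. From E14 to E17, 2 of the 73 were higher and 6 lower, against 7.56% and 3.02% of all features. Up to P1 they were 4 and 3 (5.77% and 3.43% of all features), up to P6 12 and 21 (18.0% and 20.4%), and up to P15 6 and 24 (14.4% and 19.0%). Up to P28 they were 1 and 2 (1.14% and 1.58%), and up to P60 2 and 2 (4.80% and 8.11%). The peroxiredoxins remove peroxides with electrons from thioredoxin. Of 7 genes in their list, 4 fell, 1 rose and 2 did not pass. Prdx4, the enzyme of the endoplasmic reticulum, fell from 21.0 ± 1.08 to 1.95 ± 0.885 CPM (-2.94, SE 0.17, limma adjusted p = 1.51e-16). Prdx1 (-1.64), Prdx2 (-1.49) and Prdx6 (-0.78) were also lower, with no overlap, whereas Prdx3 and Prdx5 had -0.27 and 0.20 and did not pass. The gene that rose was Srxn1, which repairs overoxidised peroxiredoxins, at 1.51.

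Of 9 thioredoxins, glutaredoxins and reductases, 7 were lower and 1 was higher, where 40.4% of all features were lower and 35.0% higher. Txnrd1, the cytosolic thioredoxin reductase, fell from 101.9 ± 18.7 to 23.5 ± 2.83 CPM (-2.06, SE 0.07, limma adjusted p = 7.41e-23), and Txn2, the mitochondrial thioredoxin, was the gene that rose (0.21). Both of the other glutathione peroxidases tested were lower, Gpx8 with -1.72 and Gpx7 with -1.28. Of 6 genes that make or recycle glutathione, 3 were higher and 3 lower. Gss (glutathione synthetase) rose by 1.48 on the log2 scale (SE 0.08, limma adjusted p = 3.19e-17), while Gsr (glutathione reductase) went from 32.7 ± 2.03 to 12.6 ± 2.14 CPM (-1.31, SE 0.09, limma adjusted p = 2.68e-14).

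Among 11 glutathione transferases 4 rose and 5 fell, where 35.0% of all features were higher and 40.4% lower. The largest change was that of Gstt1, at 1.66 (SE 0.15, limma adjusted p = 2.65e-11). Of 4 methionine sulfoxide reductases 3 fell, led by Msrb2 (-0.86). Of 9 regulators and targets of Nrf2, the factor that switches on antioxidant genes, 6 were higher and 2 lower. Nfe2l2, which encodes Nrf2, had 0.22 (limma adjusted p = 0.0204) and Keap1, its inhibitor, 0.29 (limma adjusted p = 0.00118), both with overlapping groups. Bach1, a repressor at the same sites, fell from 71.6 ± 9.49 to 26.8 ± 5.41 CPM (-1.36, SE 0.08, limma adjusted p = 1.26e-16).

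Of 7 tested genes of metal handling and selenium supply, 3 were higher and 1 lower, where 35.0% of all features were higher and 40.4% lower. Mt1, a metallothionein, held 0 to 2 reads in embryonic libraries and averaged 4.68 ± 1.23 CPM in mature retina, at least 14.8-fold over the floor of 3 reads per library. All 4 NADPH oxidase genes tested were lower, the largest change being in Nox4 (-1.81, SE 0.16, limma adjusted p = 1.37e-11). Of 6 genes listed for the supply of NADPH, the reductant of both systems, 4 were lower and 2 higher. These are RNA levels, and whether each gene yields a working enzyme in this strain was not tested. Me1, the cytosolic malic enzyme, rose from 4.19 ± 1.78 to 42.2 ± 11.2 CPM (3.09, SE 0.12, limma adjusted p = 1.42e-20), while Idh1 (-2.16), Nnt (-1.95), Idh2 (-1.95) and Pgd (-0.84) were lower.

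**Figure D5:**
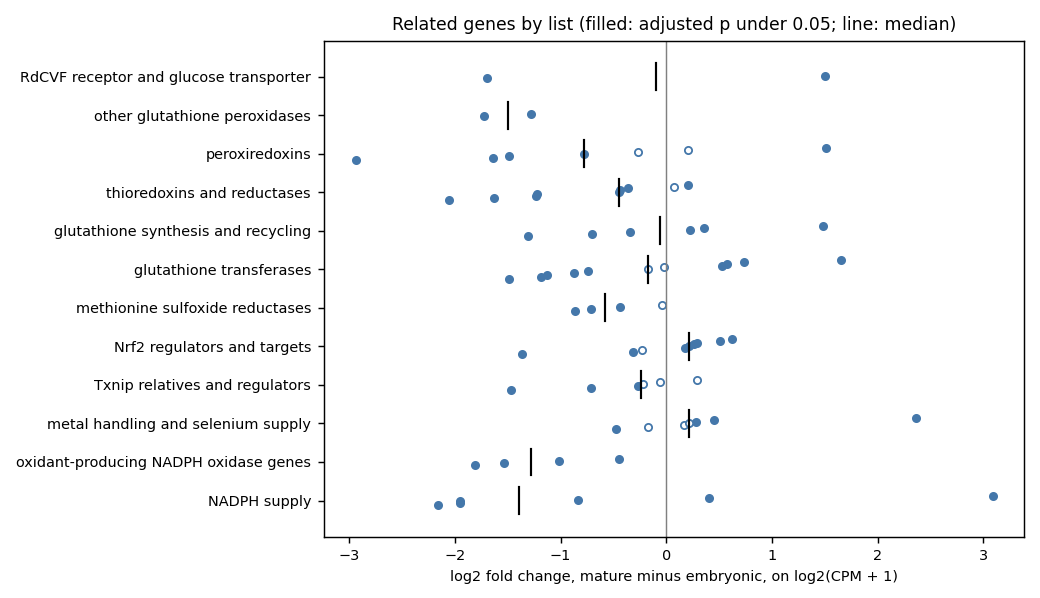
Log2 fold changes between mature and embryonic retina of the 73 tested genes, grouped by list, with filled points at an adjusted p under 0.05, open points otherwise, and a line at each list's median. The medians of the Nrf2 list and the metal and selenium list lie at 0.22, that of the peroxiredoxins lies at -0.78, and Me1 (3.09) and Prdx4 (-2.94) are the outermost genes.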

How the data were processed

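The authors made total RNA libraries with a SMARTer kit, sequenced single-end reads of 50 bases, aligned them to GRCm38 (mm10) with STAR and deposited CPM values per feature and library. The annotation and the use of strand are not given in the sources used here. Each deposited CPM value divided by that of a single read gave a whole number (100.0%, within 0.02 of a read), so reads could be recovered. Counts of reads limit the precision of low genes, and intervals and floors of 3 reads cover counting error only.

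Values were transformed to log2(CPM + 1), a scale that understates the change of low genes, and a feature had to reach 1 CPM in 3 or more libraries. A model of age was fitted to the 27 libraries in limma 3.58.1 (R 4.3.3), with the trend of the variance on the mean. Two-sided p-values were adjusted over the features tested by the method of Benjamini and Hochberg, and a call was an adjusted p under 0.05. Ratios within libraries were compared by exact permutation tests (scipy 1.17.1). The edgeR 4.0.16 quasi-likelihood test was run on recovered reads. Means are given ± SD. Named genes were the members, partners by role, the called gene with the largest change in each list, and the features most alike in profile. Idh1, Idh2, Nnt, Pgd, Srxn1, Txn2 and Gpx7 were named after their values were seen. The members and lists were chosen with earlier results of these data known. 1 rod marker is not reported here. The tests were tried on simulated data. Positions and exon lengths came from GENCODE M21 and promoters from RefSeq (GRCm38.p6). Windows of 50 bases of a member's transcripts were matched to transcripts of other genes. Alternatives are given in the closing section.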

Additional observations from a re-analysis of the deposited data

Results flagged for a closer look

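Dixon's test was applied to each member at the 4 ages with 4 to 6 libraries, 40 groups in all, of which chance flags about 1 in 20. Nxnl1 at P15 stood out, with 279 CPM in replicate 4 and 200.1 to 209 CPM in the other 3 libraries, a gap of 0.888 of the range. Without that library the step of Nxnl1 from P6 to P15 was 1.17 on the log2 scale (limma adjusted p = 6.24e-07).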

How the results depend on the processing

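The 27 single changes tested, 10 between embryonic and mature retina and 17 at steps, kept their direction in all 968 fits made under the alternatives, and 23 of them kept their call in each fit. The exceptions were Nxnl1 and Gpx1 from E14 to E17 and Sod2 from E17 to P1 and from P28 to P60. In limma without the block, the estimate of a step uses only libraries of the ages compared. Leaving out a library of another age, changing the filter or fitting the compared ages alone therefore left it unchanged. In those fits the direction of the 17 step changes was fixed, so the 968 fits overstate the support for it. The replicate numbers did not pair the libraries (median r of the deviations -0.0018 for the same number and 0.0042 for other numbers, with 3 of 27 libraries closest to their own number). With the replicate block, the members called stayed at 10 between embryonic and mature retina, and from P28 to P60 they went from 1 to 0, with Sod2 at -0.36 (limma adjusted p = 0.0541), while the related genes called went from 4 to 0. In the fit of the compared ages only, 6 members and 23 related genes were called from E14 to E17 in place of 3 and 8. Of 27367 features, 4336 were then higher and 3369 lower, in place of 2400 and 959 of 31760. From P28 to P60 that fit called 0 members and 0 related genes. Over all features it called 19 higher and 4 lower at that step, and the block 366 and 663, in place of 1524 and 2576. Calls thus shifted across the table and not only among the members.

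Requiring a log2 change of at least 1 left 6 members between embryonic and mature retina, 1 from E14 to E17, 2 each from P1 to P6 and up to P15, and 0 from P28 to P60. Of the related genes it left 28, 0, 1, 6, 8, 0 and 0 in the 7 comparisons in order of age, where 60, 8, 7, 33, 30, 3 and 4 were called. With a mean of at least 10 CPM, 32 related genes were called between embryonic and mature retina and 20 from P1 to P6, since fewer genes were tested. edgeR without E14 replicate 1, added after seeing the data, called 1 member from E14 to E17. Leaving out single libraries gave 1 to 3 members from E14 to E17 and 0 to 2 from P28 to P60. It gave 5 to 9 related genes from E14 to E17, 3 to 8 from E17 to P1, 1 to 4 from P15 to P28 and 1 to 9 from P28 to P60.

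Scaling by edgeR moved the median log2 fold change of all features between embryonic and mature retina by 0.10, from -0.06 to 0.04, and no member changed direction. Low genes depend on the scale, since Sod3 between embryonic and mature retina was 1.04 on log2(CPM + 1), 3.10 with a pseudocount of 0.1 and 4.74 in edgeR, and Nxnl1 was 7.33, 9.06 and 9.35. Sod3 had at most 2 reads in any embryonic library, which limits what its early levels can show, and Gpx3 and Sod3 could not be tested with a mean of at least 10 CPM.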
